A study of Mus musculus with 28 samples.

Results

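The genes described here are 28 mouse genes of cholesterol synthesis and sterol homeostasis, taken by symbol from the 55291 genes of the deposited expression tables and followed through all 8 sample groups of the series. They comprise 8 genes of the early mevalonate pathway, 3 that make squalene and lanosterol, 8 that turn lanosterol into cholesterol, 4 that control the SREBP transcription factors, and 5 of sterol transport, storage and export. After the filter on low values 27 of the 28 could be tested in each culture experiment and all 28 on day 16. Abca1 fell below the filter in culture.

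RNA was sequenced from LLC, a mouse Lewis lung carcinoma cell line labelled wild type, and from T cells of OT1 mice, whose transgenic receptor recognises an ovalbumin peptide. BAY-876 inhibits the glucose transporter GLUT1, and TNF is an inflammatory cytokine. The 36 h experiment compared BAY-876 at 200 nM with vehicle in LLC cells. In the 32 h experiment they were left untreated or pretreated with 200 nM BAY-876 for 24 h, then given 20 ng/ml TNF or nothing for 32 h. This gave 4 groups named control, BAY-876, TNF and the combination, and the labels do not state whether the inhibitor remained during the 32 h. On day 16, tumour cells and OT1 T cells were sorted from subcutaneous LLC-OVA-NGFR tumours of Rag1 ko mice. Loss of Rag1 blocks the maturation of B and T lymphocytes, and the mice had received activated OT1 T cells on day 9. The culture groups had 3 libraries each and the sorted groups 5 each. In the combination, 2 libraries carry another compound number in the treatment label than in the title and were grouped by title. The labels do not say that libraries of a group came from separate cultures or mice, so the p-values measure the spread between these libraries only.

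Cells build cholesterol from acetyl-CoA. The mevalonate pathway produces isoprenoid units that also feed protein prenylation, dolichol and ubiquinone, squalene is cyclised to lanosterol, and a series of demethylation, reduction and isomerisation steps yields cholesterol. Transcription of most of these enzymes is driven by SREBP-2, encoded by Srebf2. SCAP escorts SREBP-2 from the endoplasmic reticulum to the Golgi for cleavage when membrane sterol is low, while the INSIG proteins hold the complex back when sterol is plentiful. Surplus cholesterol is esterified, moved between membranes or exported.

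Promoter windows of the genes on which the results turn are printed first, since most of these genes are known targets of SREBP-2, which acts with the CCAAT-binding factor NF-Y. The windows come from RefSeq on GRCm38.p6 and run from 250 bases before to 50 bases after the annotated start, 300 bases in all, and 23 of the 28 genes had an entry. Hmgcs1 (chr13:119690101-119690400, plus strand) is shown because it alone of the 23 held the letters TCACNCCAC, part of a classical sterol regulatory element. Idi1 (chr13:8885356-8885655, plus strand) and Msmo1 (chr8:64733529-64733828, minus strand) had the largest increases with BAY-876 at 32 h, and Cyp51 (chr5:4104648-4104947, minus strand) fell at 36 h and rose at 32 h. Insig1 (chr5:28071162-28071461, plus strand) and Insig2 (chr1:121332540-121332839, minus strand, the first of its 3 entries) are shown as the INSIG genes that fell with TNF. Capitals mark TCACNCCAC and CCAAT on either strand, so CCAAT on the opposite strand reads ATTGG.
Hmgcs1: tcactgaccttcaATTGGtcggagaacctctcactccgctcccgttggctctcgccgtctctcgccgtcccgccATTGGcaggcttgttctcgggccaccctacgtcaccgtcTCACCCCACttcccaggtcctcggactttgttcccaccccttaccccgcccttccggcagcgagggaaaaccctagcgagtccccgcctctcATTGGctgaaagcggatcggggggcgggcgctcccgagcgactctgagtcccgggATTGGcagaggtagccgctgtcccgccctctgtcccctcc
Idi1: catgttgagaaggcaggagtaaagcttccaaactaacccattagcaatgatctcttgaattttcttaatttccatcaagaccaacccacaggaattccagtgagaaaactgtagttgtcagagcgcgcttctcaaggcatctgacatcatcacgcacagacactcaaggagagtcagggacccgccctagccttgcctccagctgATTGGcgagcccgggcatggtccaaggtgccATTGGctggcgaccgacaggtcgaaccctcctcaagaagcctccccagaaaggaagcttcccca
Msmo1: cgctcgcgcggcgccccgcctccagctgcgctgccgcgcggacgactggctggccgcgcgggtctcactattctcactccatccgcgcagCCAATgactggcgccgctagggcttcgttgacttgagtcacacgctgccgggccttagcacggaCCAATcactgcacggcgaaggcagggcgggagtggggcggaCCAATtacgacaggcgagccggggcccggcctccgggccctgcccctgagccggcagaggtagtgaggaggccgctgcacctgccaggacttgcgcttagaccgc
Cyp51: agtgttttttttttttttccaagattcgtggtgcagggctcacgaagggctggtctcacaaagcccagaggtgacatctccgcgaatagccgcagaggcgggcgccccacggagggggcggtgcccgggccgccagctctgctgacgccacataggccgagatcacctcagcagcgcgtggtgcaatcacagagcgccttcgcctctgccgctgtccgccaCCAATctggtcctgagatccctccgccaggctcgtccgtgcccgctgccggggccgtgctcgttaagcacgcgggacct
Insig1: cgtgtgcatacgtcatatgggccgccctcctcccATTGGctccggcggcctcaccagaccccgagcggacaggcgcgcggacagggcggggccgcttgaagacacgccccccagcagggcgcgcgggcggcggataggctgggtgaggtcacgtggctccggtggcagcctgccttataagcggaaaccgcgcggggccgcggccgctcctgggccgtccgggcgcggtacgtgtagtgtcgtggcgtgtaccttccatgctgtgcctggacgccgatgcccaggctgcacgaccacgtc
Insig2: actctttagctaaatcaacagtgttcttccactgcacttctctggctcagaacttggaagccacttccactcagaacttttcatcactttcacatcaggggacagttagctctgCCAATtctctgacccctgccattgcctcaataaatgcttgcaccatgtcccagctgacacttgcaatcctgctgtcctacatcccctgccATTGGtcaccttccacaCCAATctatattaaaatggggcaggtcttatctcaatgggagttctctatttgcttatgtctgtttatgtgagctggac

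Both strands of each window were searched. Of the 23 genes TCACNCCAC occurred in Hmgcs1 only, as TCACCCCAC from 137 to 129 bases before the start, against 1.24% of 32851 promoters and 1.44% of 27025 genes. CCAAT was present in 20 of the 23 genes and in 41.1% of all genes with an entry (37.4% of promoters). The GC box letters GGGCGG were present in 21 of the 23 genes and in 38.2% of all genes with an entry (35.7% of promoters). Among the 92 matches in these genes, 0 pairs of different motifs overlapped. These matches describe the windows and were not tested for binding.

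The sorted and cultured cells were checked against marker genes. Cd3e, a defining T cell gene, had a mean of 549 TPM in sorted OT1 cells against 0.177 in sorted tumour cells, and was at 0 in every culture library. Krt18, a keratin of epithelial tumour cells, had a mean of 81.8 TPM in sorted tumour cells against 6.64 in the T cells. The 6 epithelial tumour markers together summed to 776 to 910 TPM in sorted tumour cells and to 39.2 to 101 in the T cells. Not all of them separated the sorted cells. Krt19 averaged 0.595 and 0.232 TPM, and Epcam ran the other way at 0.050 and 0.593. Cultured LLC cells expressed Krt18 and Met but had Krt19 and Epcam at 0 in every library at 32 h. At 36 h the normalized counts of a library summed to between 16848000 and 17134500. The TPM tables sum to 1000000 per library, so their depth is unknown.

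After 36 h of BAY-876 alone few of the genes passed the test. Of 27 genes tested, 3 rose and 2 fell at an adjusted p under 0.05 (limma on log2(value + 1), Benjamini-Hochberg over all genes tested), against 7.34% and 7.1% of all 12937 genes. The median log2 difference of the 27 genes was 0.0018 and that of all genes -0.0012. Both counts were near those shares.

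Cyp51, the lanosterol 14-demethylase, had 1257, 1298 and 1314 normalized counts in the vehicle libraries and 957, 948 and 850 with BAY-876. The groups did not overlap, and the log2 difference was -0.49 ± 0.07 (SE, adjusted p = 0.00349). Sc5d, the lathosterol desaturase, had 827, 928 and 903 normalized counts with vehicle and 688, 685 and 698 with BAY-876. It fell by 0.36 ± 0.07 on the log2 scale (adjusted p = 0.0149). Of the other genes of the lanosterol segment, Hsd17b7 and Dhcr7 had log2 differences of -0.37 and -0.38 that missed the threshold (adjusted p = 0.071 and 0.0875). Their groups did not overlap either. Tm7sf2 of the same segment ran the other way without passing. It had 43.9, 49.2 and 105 normalized counts with vehicle and 79.3, 113 and 103 with BAY-876, overlapping groups.

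Soat1, which esterifies cholesterol for storage, had 2933, 2755 and 2649 normalized counts with vehicle and 3778, 4451 and 3318 with BAY-876. It rose by 0.46 ± 0.10 on the log2 scale (adjusted p = 0.0173), with the largest spread among the treated libraries. Npc2 and Npc1, which pass cholesterol out of lysosomes, averaged 1176 ± 88.1 and 782 ± 38.5 normalized counts (SD, n = 3) with vehicle and 1545 ± 85.8 and 940 ± 54.3 with BAY-876. Their log2 differences were 0.40 ± 0.08 (adjusted p = 0.0118) and 0.26 ± 0.08 (adjusted p = 0.048). No mevalonate gene passed limma's threshold at 36 h. Of the 8, 1 gene, Fdps, had an unadjusted p under 0.05, a threshold at which no share of all genes was computed. Insig2, an SREBP retention gene, had a log2 difference of 0.47 ± 0.15 (adjusted p = 0.062).

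These calls rested on few libraries. The count of genes that rose was 1 without vehicle library 2 and 1 without vehicle library 3, the count that fell was 1 in each case, and without a trend in the prior variance no gene rose. The gene that rose without vehicle library 3 was Tm7sf2 (1.05, adjusted p = 0.0376 in limma), while Soat1, Npc1 and Npc2 lost their calls there. Of the 5 calls, that of Cyp51 held under every alternative tried. The summed fibroblast markers, of which 5 of 6 reached the filter level, ranged from 16638 to 17696 normalized counts with vehicle and from 21353 to 23018 with BAY-876. The sum was carried by Col3a1, at 15993 ± 638 and 21225 ± 664 normalized counts, while Pdgfra had 955 ± 77.5 and 1021 ± 256 and Col1a2 36.4 ± 12.6 and 30.9 ± 14.5. Their part in the result was not tested.

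**Figure D1:**
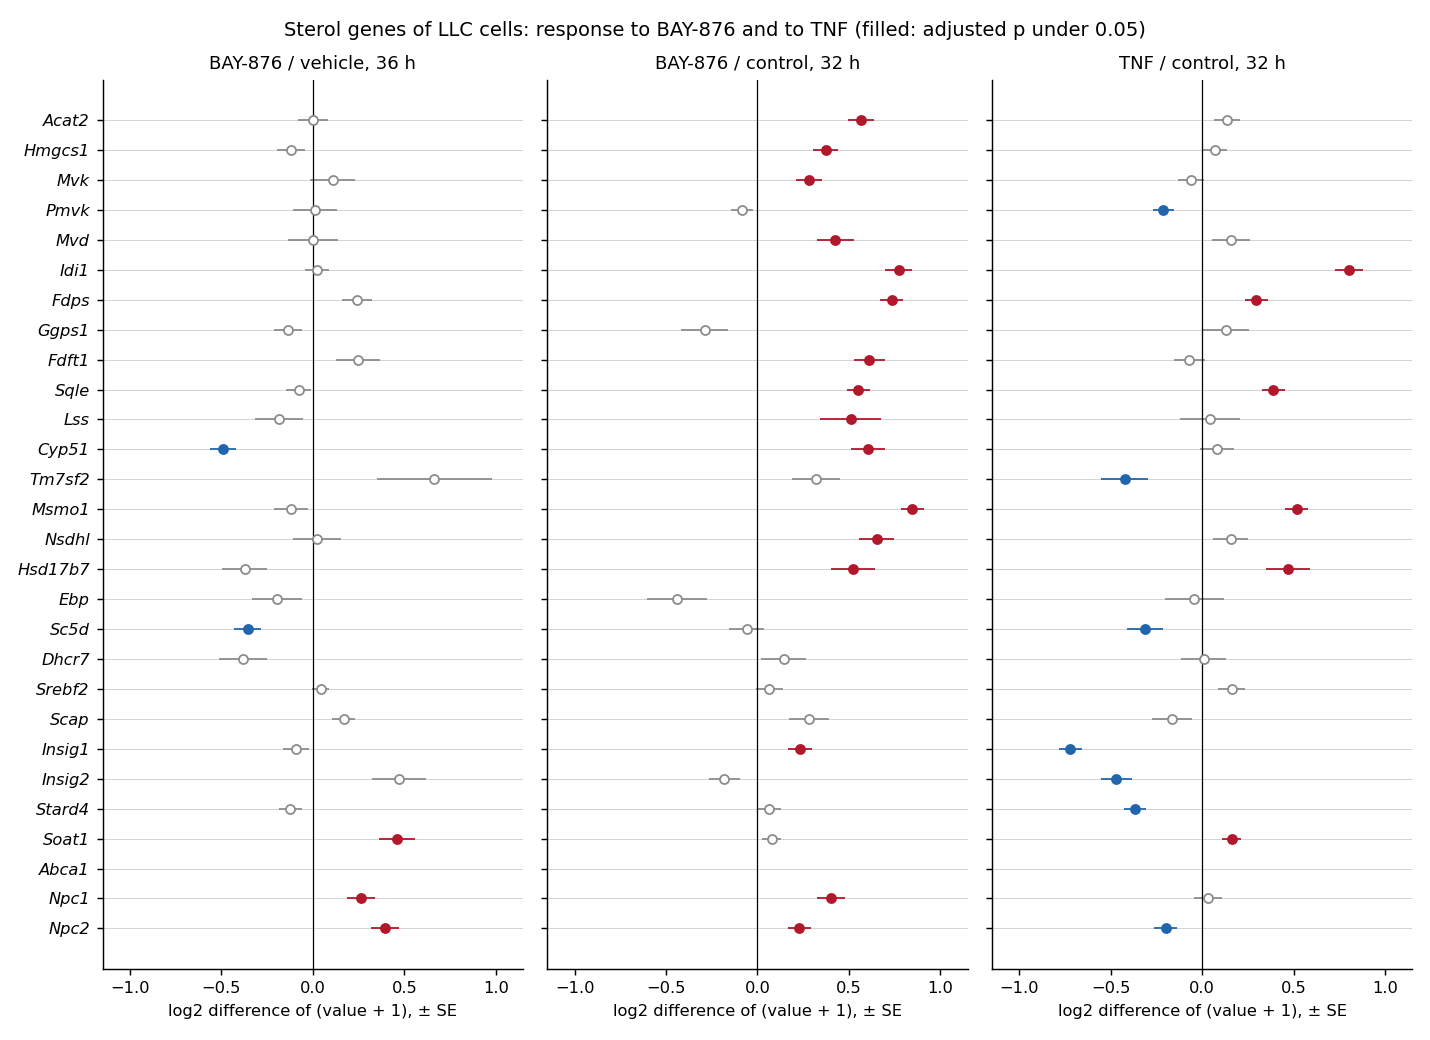
Log2 difference of (value + 1) with its standard error for each gene, in pathway order from top to bottom, for BAY-876 at 36 h, BAY-876 at 32 h and TNF at 32 h. Filled red and blue points passed an adjusted p of 0.05. The middle panel has 16 genes higher and 0 lower, against 3 and 2 in the left panel and 6 and 7 in the right. Abca1 was not tested in culture.

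In the 32 h experiment BAY-876 alone raised genes in all 5 role groups. Of 27 genes tested, 16 rose and 0 fell, against 11.5% higher and 25.8% lower of all 12780 genes. The median log2 difference of the 27 genes was 0.32 and that of all genes -0.09. At an unadjusted p under 0.05, 18 were higher and 2 lower, and the share of all genes at that threshold was not computed. Among all genes 30.8% of the calls were increases, and 49.3% after quantile normalization, where 19 of the 27 genes rose and 0 fell.

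Of the 8 early mevalonate genes 6 rose, and Pmvk and Ggps1 did not pass. Idi1, the isopentenyl diphosphate isomerase, had 19.5, 21.8 and 20.9 TPM in control libraries and 36.5, 35.4 and 36.5 with BAY-876. All treated libraries lay above all controls, with a log2 difference of 0.77 ± 0.07 (adjusted p = 1.92e-05). Fdps, the farnesyl diphosphate synthase, had 105, 102 and 104 TPM in control libraries and 175, 160 and 186 with BAY-876. It rose by 0.73 ± 0.06 (adjusted p = 8.29e-06).

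Acat2, the cytosolic acetoacetyl-CoA thiolase at the entry of the pathway, rose from 35.5 ± 1.90 to 53.0 ± 2.83 TPM (SD, n = 3). Hmgcs1, the cytosolic HMG-CoA synthase, rose from 30.5 ± 1.29 to 39.7 ± 0.327 TPM. The kinase Mvk and the decarboxylase Mvd rose by 0.28 and 0.43 on the log2 scale (adjusted p = 0.0103 and 0.00711). Pmvk, the kinase between them, had 38.5 ± 1.12 TPM in control and 36.3 ± 1.80 with BAY-876 (adjusted p = 0.282). Ggps1, which leads from the pathway towards geranylgeranylation, had 20.0 ± 3.43 and 16.0 ± 1.28 TPM (adjusted p = 0.095).

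The 3 genes of the squalene segment all rose. Fdft1, squalene synthase, had 14.9, 14.5 and 13.5 TPM in control libraries and 21.7, 20.5 and 25.1 with BAY-876, a log2 difference of 0.61 ± 0.08 (adjusted p = 0.000222). Sqle, squalene epoxidase, had 32.6, 34.8 and 34.0 TPM in control libraries and 50.5, 51.1 and 48.3 with BAY-876, a log2 difference of 0.55 ± 0.06 (adjusted p = 5.08e-05). Lss, lanosterol synthase, varied more, with 18.3, 25.5 and 15.5 TPM in control libraries and 26.7, 28.3 and 29.2 with BAY-876. Its log2 difference of 0.51 ± 0.16 (adjusted p = 0.0304) lost its call under several alternatives, for example without control library 3 (adjusted p = 0.117).

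Of the 8 genes between lanosterol and cholesterol 4 rose, Cyp51 and those that remove the C4 methyl groups. Msmo1, the sterol C4-methyl oxidase, had 26.5, 26.7 and 25.1 TPM in control libraries and 47.5, 46.3 and 49.4 with BAY-876. Its log2 difference of 0.85 ± 0.06 (adjusted p = 3.46e-06) was the largest of the 27 genes. Nsdhl and Hsd17b7, which act with Msmo1 in removing the C4 methyl groups, rose from 14.8 ± 1.32 to 23.7 ± 0.592 TPM and from 4.99 ± 0.719 to 7.63 ± 1.2 TPM. Cyp51 had 19.7, 18.5 and 22.5 TPM in control libraries and 27.6, 33.3 and 32.7 with BAY-876, a log2 difference of 0.60 ± 0.09 (adjusted p = 0.00043).

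The reductases Tm7sf2 and Dhcr7, the isomerase Ebp and the desaturase Sc5d did not pass. In the order Tm7sf2, Ebp, Sc5d and Dhcr7 their log2 differences were 0.32, -0.44, -0.06 and 0.14. Ebp had 20.4, 13.7 and 18.5 TPM in control libraries and 13.1, 15.3 and 9.71 with BAY-876, overlapping groups with an adjusted p of 0.0527. It passed as lower with a filter at a mean of 5 TPM (adjusted p = 0.0446), and it was called without control library 2, together with Ggps1, and without BAY-876 library 2. Without BAY-876 library 3, Insig2 was the gene called lower, at -0.27 (adjusted p = 0.022).

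Cyp51 thus passed the test as lower at 36 h and as higher at 32 h. The experiments differed in duration, in the treatment scheme and in the deposited unit, and the difference between them was not tested. Npc1 and Npc2 were higher in both. Of the 16 genes that rose at 32 h, 13 did not pass the test at 36 h, where the log2 difference of Msmo1 was -0.12 ± 0.09, that of Idi1 0.02 ± 0.07 and that of Fdps 0.24 ± 0.08 (adjusted p = 0.081).

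Among the regulators, Srebf2 itself had 97.8, 107 and 97.2 TPM in control libraries and 115, 100.2 and 101 with BAY-876, with a 95% interval of the log2 difference from -0.10 to 0.23. Scap had a log2 difference of 0.28 ± 0.11 (adjusted p = 0.0616). Insig1, a target as well as a brake of SREBP-2, had 68.2, 66.9 and 63.5 TPM in control libraries and 77.7, 79.3 and 76.8 with BAY-876, a log2 difference of 0.23 ± 0.06 (adjusted p = 0.0147). Npc1 rose from 12.5 ± 0.663 to 16.8 ± 0.736 TPM and Npc2 from 33.4 ± 0.647 to 39.3 ± 2.37. Stard4, a soluble sterol carrier, and Soat1 had log2 differences of 0.06 and 0.08 and did not pass. The call of Insig1 was lost without control library 3, and that of Npc2 without BAY-876 library 2 or 3.

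With TNF alone, 6 of the 27 genes rose and 7 fell, against 19.4% higher and 26.1% lower of all 12780 genes. Both counts were near those shares. The median log2 difference was 0.04 and that of all genes -0.06. The comparison shares its control libraries with that of BAY-876.

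Idi1 had 33.9, 39.2 and 37.8 TPM with TNF, all above its controls, a log2 difference of 0.80 ± 0.07 (adjusted p = 4.75e-06). Msmo1 had 40.8, 37.1 and 35.6 TPM with TNF, a log2 difference of 0.52 ± 0.06 (adjusted p = 4.34e-05). Sqle rose from 33.8 ± 1.11 to 44.5 ± 0.426 TPM, Fdps from 104 ± 1.73 to 128 ± 7.31, Hsd17b7 from 4.99 ± 0.719 to 7.27 ± 0.439 and Soat1 from 80.8 ± 5.40 to 90.5 ± 2.26. The mevalonate genes Acat2, Hmgcs1, Mvk and Mvd, and Fdft1, Lss, Cyp51 and Nsdhl further on, did not pass with TNF. Their log2 differences lay between -0.07 and 0.16.

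Both INSIG genes fell. Insig1 had 41.3, 41.0 and 37.2 TPM with TNF, all below its controls, a log2 difference of -0.72 ± 0.06 (adjusted p = 3.62e-06). Insig2 had 56.2, 53.8 and 57.5 TPM in control libraries and 41.8, 40.9 and 37.5 with TNF, a log2 difference of -0.47 ± 0.09 (adjusted p = 0.000866). Stard4 had 17.3, 17.8 and 16.1 TPM in control libraries and 13.1, 12.8 and 13.2 with TNF, a log2 difference of -0.37 ± 0.06 (adjusted p = 0.000512).

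The smaller decreases were those of Pmvk, Tm7sf2 (the sterol C14-reductase), Sc5d and Npc2, with log2 differences of -0.21, -0.42, -0.31 and -0.20. The count of genes that fell was 4 without control library 1 and 4 without TNF library 3. Srebf2 had a log2 difference of 0.16 ± 0.07 with TNF (adjusted p = 0.0933), and it passed as higher in a limma fit of the compared libraries alone (adjusted p = 0.0425). The calls of Soat1, Tm7sf2, Sc5d and Npc2 were each lost under at least 1 alternative. Beside each other, and with shared controls, the log2 differences with BAY-876 and with TNF were 0.77 and 0.80 for Idi1, 0.73 and 0.30 for Fdps, 0.23 and -0.72 for Insig1, and 0.23 and -0.20 for Npc2.

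**Figure D2:**
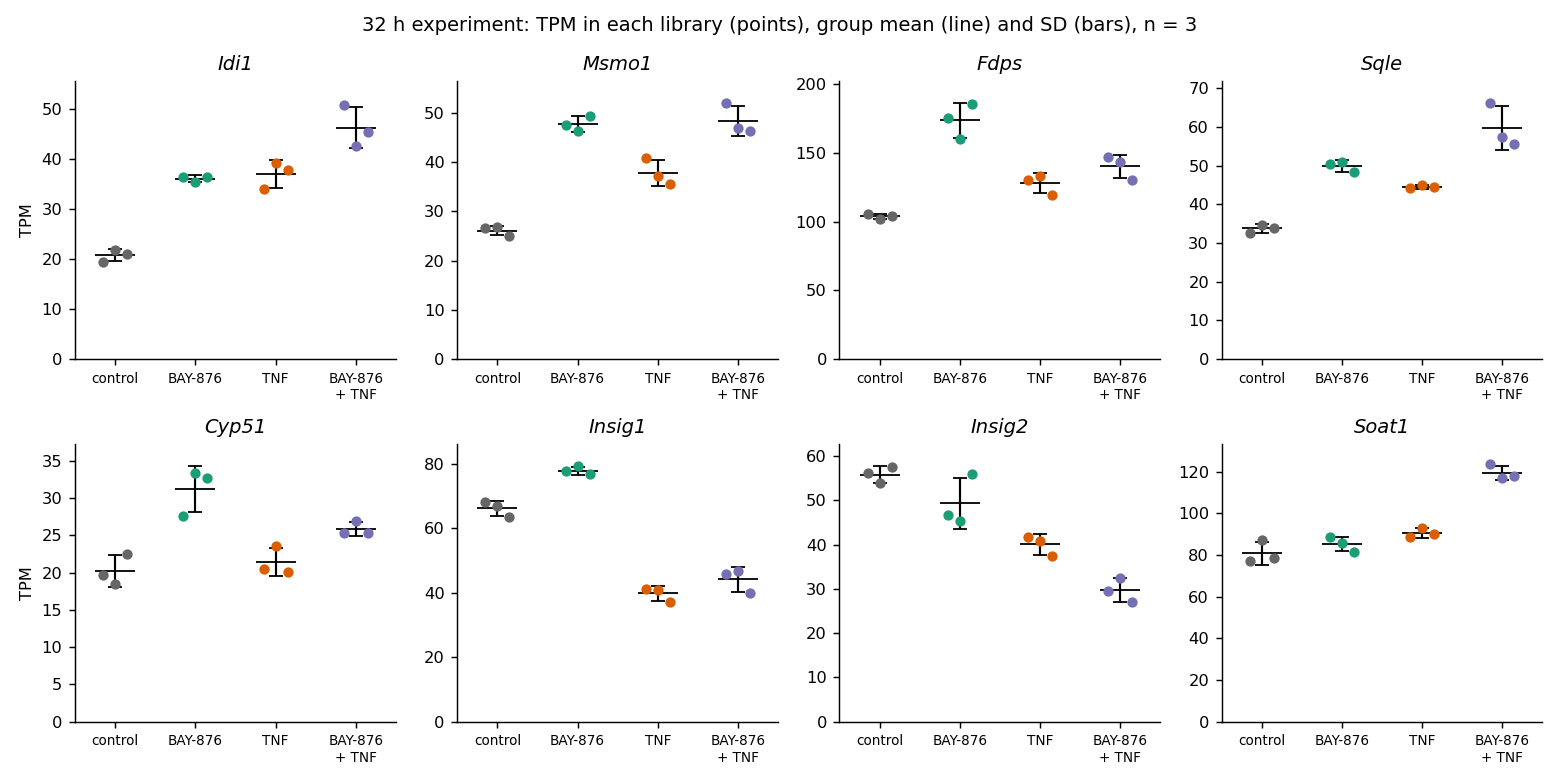
TPM of 8 genes in each library of the 32 h experiment (points), with the group mean (horizontal line) and SD (bars), 3 libraries per group, every axis starting at 0. Idi1 and Sqle are highest in the combination, Fdps is highest with BAY-876 alone, Insig1 and Insig2 are low in both TNF groups, and Soat1 at 117 to 123 TPM in the combination lies above every other group.

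In the combination, 12 of the 27 genes lay above control and 5 below, against 20.9% and 37.9% of all genes. The median log2 difference was 0.19 and that of all genes -0.13. Quantile normalization moved the median of all genes by 0.148, to 0.017, and the share of increases among all calls from 35.6 to 51.2%. It gave 15 genes above control and 5 below, with a median of 0.34.

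Idi1 reached 50.9, 42.7 and 45.3 TPM, a log2 difference from control of 1.12 ± 0.07 (adjusted p = 1.53e-07) and the largest of the 27 genes. Sqle reached 66.2, 57.3 and 55.6 TPM and Msmo1 51.9, 46.9 and 46.4, with log2 differences from control of 0.80 ± 0.06 and 0.87 ± 0.06. Soat1 reached 123, 117 and 118 TPM, above all libraries of the other 3 groups, and Npc1 averaged 19.2 ± 1.11 TPM. At the other end Insig2 fell to 29.4, 32.5 and 27.1 TPM, below every library of the other groups, a log2 difference from control of -0.89 ± 0.09 (adjusted p = 3.27e-06). Pmvk and Sc5d fell to 25.4 ± 1.67 and 22.3 ± 2.61 TPM, with log2 differences of -0.58 and -0.61, and Insig1 and Stard4 also lay below control. The calls of Hsd17b7 and Mvd, both higher, were lost under some alternatives.

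Against BAY-876 alone, adding TNF raised 3 of the 27 genes and lowered 14, against 19.3% and 24.8% of all genes, with a median of -0.20 against -0.05. After quantile normalization 4 genes rose and 10 fell, with a median of -0.21 against 0.014 over all genes. Idi1, Sqle and Soat1 were higher than with BAY-876 alone. The genes that were lower included Acat2, Hmgcs1, Mvk, Pmvk and Fdps of the mevalonate segment, Fdft1, Cyp51, Tm7sf2, Nsdhl and Sc5d further on, both INSIG genes, Stard4 and Npc2. Fdps fell from 174 ± 13.0 TPM with BAY-876 to 140 ± 8.66 with both agents (log2 difference -0.31 ± 0.06, adjusted p = 0.00194). Insig1 fell by 0.81 ± 0.06 (adjusted p = 1.34e-06). Several of the smaller decreases were close to the threshold: 9 genes were lower in a fit of the compared libraries alone, 9 without BAY-876 library 3, and 8 without combination library 3.

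Against TNF alone, adding BAY-876 raised 9 of the 27 genes and lowered 3, against 10.4% and 23.6% of all genes, with a median of 0.18 against -0.08. Of all calls 30.5% were increases, and 47.6% after quantile normalization, where 13 genes rose and 2 fell. Acat2, Idi1, Fdft1, Sqle, Cyp51, Msmo1, Soat1, Npc1 and Npc2 rose. The largest difference was that of Npc1, at 0.55 ± 0.08 (adjusted p = 0.000248). Pmvk, Sc5d and Insig2 fell, with log2 differences of -0.37, -0.30 and -0.42. The calls of Acat2, Cyp51, Sc5d and Npc2 in this comparison were lost under some alternatives. The comparisons of the combination share libraries with each other and with those of the single agents.

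The interaction compares the response to BAY-876 in the presence of TNF with that in its absence. It was below 0 in 22 of the 27 genes, with a median of -0.20 against 0.001 over all genes. A pair of genes passed as negative and 0 as positive in limma, against 0.822% and 0.736% of all genes. At an unadjusted p under 0.05, 10 were negative and 1, Soat1, was positive. The share of all genes at that unadjusted threshold was not computed, so these counts have no background to be read against. Fdps rose by 0.73 with BAY-876 alone and had a difference of 0.13 ± 0.06 (adjusted p = 0.131) when TNF was present, an interaction of -0.60 ± 0.09 (adjusted p = 0.0076). Msmo1 rose by 0.85 without and by 0.35 with TNF, an interaction of -0.50 ± 0.09 (adjusted p = 0.0187).

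Idi1 and Hsd17b7 had interactions of -0.46 ± 0.11 and -0.64 ± 0.17 that missed the threshold (adjusted p = 0.0581 and 0.0936). Idi1 passed as negative with a filter at a mean of 5 TPM (adjusted p = 0.0471), after quantile normalization (0.0275), without TNF library 1 (0.0404) and without combination library 1 (0.0278). Soat1 had one of 0.32 ± 0.07 (adjusted p = 0.0581), and it passed with a filter at a mean of 5 TPM (adjusted p = 0.0483). The interaction of Fdps held under every alternative, while Msmo1 lost its call without BAY-876 library 3 (adjusted p = 0.0544), which left 1 gene. On the linear TPM scale Msmo1 averaged 26.1, 47.7, 37.8 and 48.4 TPM in control, BAY-876, TNF and the combination, so that the combination and BAY-876 alone differed by less than their SDs of 3.06 and 1.58.

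**Figure D3:**
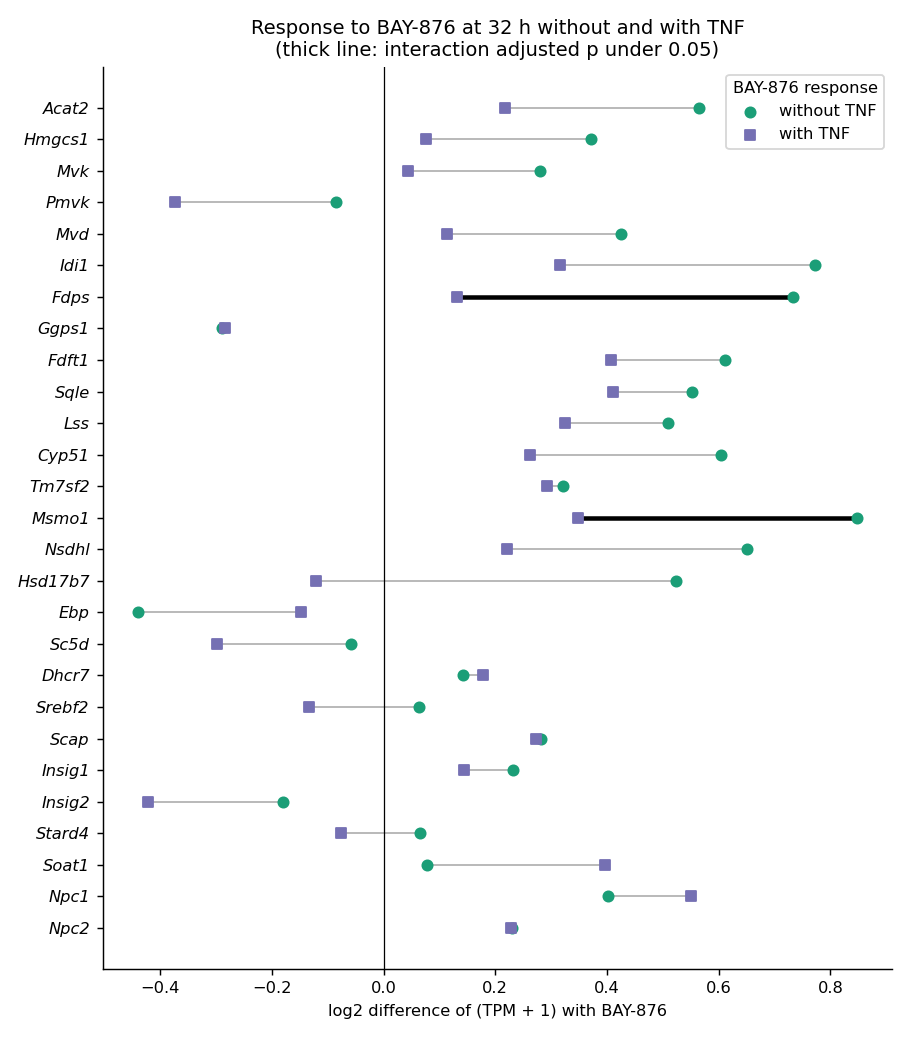
Log2 difference of (TPM + 1) with BAY-876 at 32 h in the absence of TNF (circles) and in its presence (squares), one line per gene in pathway order. Squares lie to the left of circles for 22 of 27 genes, and the thick lines mark Fdps and Msmo1, whose interactions passed an adjusted p of 0.05.

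Summed marker lists also moved between these groups. Of the 6 epithelial tumour markers, LLC cells themselves had 4 at the filter level. The summed epithelial markers ranged from 810 to 879 TPM in control, 692 to 714 with BAY-876, 317 to 323 with TNF and 218 to 230 in the combination. The summed fibroblast markers ranged from 840 to 863, 829 to 839, 360 to 423 and 300.2 to 342 TPM in the same order. Col3a1 carried this sum, with means of 805, 806, 367 and 310 TPM, while Pdgfra had 46.1, 26.3, 22.1 and 11.1. The T cell markers summed to 6.46 to 7.37, 2.41 to 4.88, 5.57 to 7.63 and 4.70 to 5.99 TPM, with Cd3e at 0 throughout. Nearly all of this was Cd247, with means of 6.25, 3.70, 6.03 and 4.81 TPM. The 15 myeloid markers summed to 13.2 to 15.1, 18.8 to 22.5, 18.2 to 18.4 and 22.1 to 25.0 TPM, with Adgre1 at 0 throughout. Cd14 carried most of this sum, with means of 9.22, 16.5, 15.1 and 20.1 TPM. Lyz2 ran the other way, with means of 3.01, 1.17, 0.709 and 0.401 TPM. The part of these shifts in the sterol results was not tested.

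The authors' deposited table of BAY-876 against control at 32 h called 18 of the 27 genes higher and 0 lower, against 16.3% and 15.3% of its 14148 genes. The median log2 fold change of the 27 genes in the authors' deposited table was 0.48, and that of all its genes -0.002. All 16 genes called here were called in the authors' deposited table, which added Srebf2 (0.17, adjusted p = 0.0232) and Soat1 (0.18, adjusted p = 0.0256).

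For TNF the authors' deposited table called 8 genes higher and 4 lower, against 19.7% and 17.4% of its genes, and 10 of these were also called here. Called only there, as higher, were Srebf2 (0.24, adjusted p = 1.61e-05) and Acat2 (0.21, adjusted p = 0.0425). For the combination against BAY-876 the authors' deposited table called 4 higher and 6 lower, against 19.1% and 17.3%, with 9 also called here. Against TNF alone the authors' deposited table called 15 higher and 1 lower, against 14.4% and 13.4%, with 10 also called here. Fdps was among the genes called higher only there, at 0.22 (adjusted p = 0.014). Each of these calls made in both the authors' deposited table and the fit here had the same sign.

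A further 51 names of sterol and isoprenoid genes were examined alongside, of which 45 passed the filter in each culture table and 47 on day 16. Of the 45, BAY-876 raised 8 and lowered 4 at 36 h (median log2 difference 0.02), against 7.34% and 7.1% of all genes. At 32 h it raised 8 and lowered 12 (median -0.01), against 11.5% and 25.8%. TNF raised 9 and lowered 15 (median -0.08), against 19.4% and 26.1%. The combination stood above control in 13 and below it in 19 (median -0.02), against 20.9% and 37.9%. It stood above BAY-876 in 8 and below it in 17 (median -0.11), against 19.3% and 24.8%, and above TNF in 8 and below it in 12 (median -0.10), against 10.4% and 23.6%. In limma the interaction passed in 0 as positive and 2 as negative (median -0.04), against 0.736% and 0.822%. At an unadjusted p under 0.05 it was positive in 5 and negative in 4, without a computed share of all genes. Of these counts the 8 that rose at 36 h became 1 to 3 without BAY-876 library 2 or 3 or without any 1 of the vehicle libraries, and the 8 that rose at 32 h became 5 without BAY-876 library 3. Genes among those with the smallest p in a comparison are named in what follows.

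At 36 h these included Tmem97, a sterol-regulated membrane protein, which fell from 1791 ± 26.8 to 1323 ± 51.1 normalized counts, and Pdss1, which makes the isoprenoid tail of ubiquinone and fell by 0.73 on the log2 scale. At 32 h BAY-876 lowered Acat1, the mitochondrial acetoacetyl-CoA thiolase, from 60.1 ± 1.28 to 39.6 ± 2.42 TPM, where its cytosolic counterpart Acat2 rose. Cyb5r3, a reductase that supplies electrons to sterol enzymes, fell by 0.45 on the log2 scale. Abcg1, a sterol exporter and target of the oxysterol receptors, rose from 10.3 ± 0.607 to 20.3 ± 2.6 TPM (log2 difference 0.90 ± 0.12, adjusted p = 0.000149). Abca1, the related exporter, was at or near 0 in culture, with a highest value of 0.021 TPM at 32 h and of 1.92 normalized counts at 36 h.

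TNF lowered the oxysterol-binding protein gene Osbpl2 by 0.82 and the SREBP protease gene Mbtps1 by 0.36, and it raised Tmem97 by 0.55. Lpcat3, a phospholipid-remodelling enzyme, had an interaction of -0.87 ± 0.12 (adjusted p = 0.00659) and Abcg1 one of -0.76 ± 0.17 (adjusted p = 0.0464). A single one of these interactions passed when control library 1, 2 or 3, BAY-876 library 2 or 3, TNF library 1 or 2, or combination library 1 or 2 was left out. Lpcat3 averaged 49.2, 63.8, 42.6 and 29.7 TPM in control, BAY-876, TNF and the combination. Gramd1b, which carries cholesterol from the plasma membrane inward, was raised by BAY-876 in the presence of TNF by 0.75 ± 0.12 (adjusted p = 0.000565). Cyb5r3 and Acat1 had the lowest levels in the combination, at 71.0 ± 5.07 and 30.7 ± 2.51 TPM, against 147 ± 2.6 and 60.1 ± 1.28 in control.

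On day 16 most synthesis genes were lower in OT1 T cells than in tumour cells. Of 28 genes 20 were lower and 4 higher in OT1 cells, against 44.4% and 30.1% of all 13511 genes. Among the 4, Abca1 had passed the filter only through its OT1 libraries. The median log2 difference was -0.75 and that of all genes -0.21. In these bulk libraries fewer cells of a type and less RNA per cell cannot be told apart.

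Fdps had 115, 154, 157, 115 and 72.2 TPM in the 5 tumour libraries and 37.2, 26.5, 30.9, 30.02 and 13.5 in the T cell libraries. The groups did not overlap, and its log2 difference of -2.13 ± 0.27 (adjusted p = 1.98e-05) was the largest decrease of the 28 genes. Acat2 had 24.7, 29.96, 31.9, 29.3 and 20.9 TPM in tumour libraries and 11.7, 9.07, 8.69, 8.55 and 5.09 in the T cells, a log2 difference of -1.58 ± 0.19. Sqle followed at 34.4 ± 8.68 TPM in tumour cells against 11.1 ± 3.63 in the T cells (SD, n = 5), and Msmo1 at 35.1 ± 7.73 against 11.9 ± 0.726, with log2 differences of -1.57 and -1.46. Those of Idi1, Hsd17b7, Cyp51, Insig1 and Lss ran from -1.37 to -1.01.

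The remaining decreases, of Hmgcs1, Mvk, Pmvk, Mvd, Fdft1, Tm7sf2, Nsdhl, Sc5d, Scap, Insig2 and Soat1, ranged from -0.43 for Pmvk to -0.99 for Mvk. The groups overlapped for Pmvk, Fdft1, Lss, Tm7sf2 and Soat1. Srebf2 had a mean of 78.1 ± 10.9 TPM in the T cells against 81.5 ± 18.0 in the tumour, with a 95% interval of the log2 difference from -0.38 to 0.29. Ggps1, at 21.5 ± 3.66 and 23.6 ± 3.91 TPM, also did not pass. The groups of both genes overlapped.

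A pair of enzymes near the end of the pathway ran the other way. Ebp had 54.3, 57.3, 47.0, 47.8 and 49.6 TPM in the T cells against 27.98, 21.1, 22.2, 23.7 and 22.9 in the tumour cells, a log2 difference of 1.09 ± 0.10 (adjusted p = 9.06e-07). Dhcr7, the final reductase of one branch, had 26.9, 17.9, 19.5, 19.3 and 19.3 TPM in the T cells against 14.6, 14.0, 17.6, 14.4 and 16.8 in the tumour cells. The groups of Dhcr7 were separated by a narrow margin, with a log2 difference of 0.38 ± 0.12 (adjusted p = 0.0147).

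**Figure D4:**
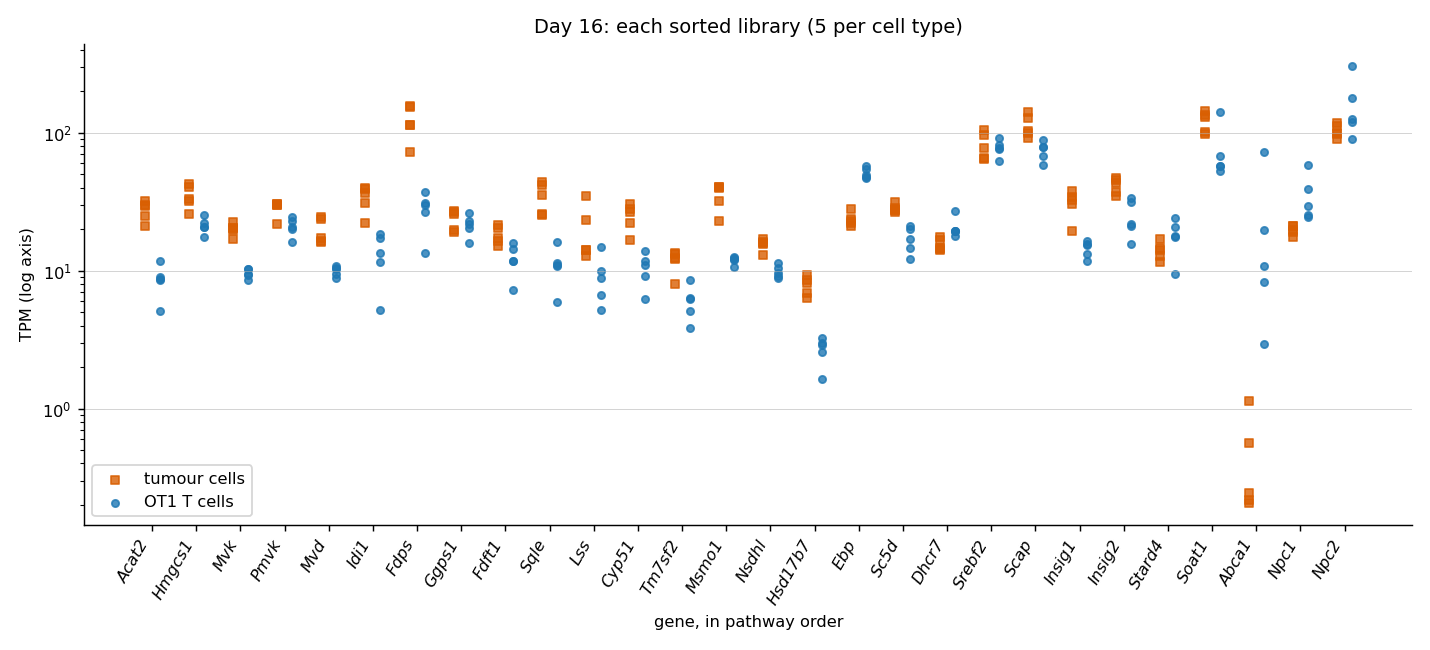
TPM on a log axis of each gene in the 5 tumour libraries (squares) and the 5 OT1 libraries (circles) of day 16, genes in pathway order. From Acat2 to Sc5d the circles lie mostly below the squares, apart from Ebp, and on the right Abca1 spans 2.93 to 72.9 TPM in OT1 cells against 0.208 to 1.14 in the tumour.

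Genes of export and lysosomal transport were higher or uneven in the OT1 libraries. Abca1, the exporter of cholesterol to lipoproteins, had 2.93, 19.7, 8.26, 10.8 and 72.9 TPM in OT1 libraries 1 to 5 against 0.208, 0.561, 0.219, 0.246 and 1.14 in the tumour, a log2 difference of 3.34 ± 0.61 (adjusted p = 0.000383). It reached 1 TPM in every OT1 library but only in library 5 of the tumour, so it was tested because of its OT1 values. Its p-value therefore adds no support beyond the values themselves. Npc1 had 24.4, 38.8, 25.5, 29.2 and 58.4 TPM in OT1 libraries against 17.4 to 21.3 in the tumour, a log2 difference of 0.73 ± 0.21 (adjusted p = 0.00703). Npc2 had 90.0, 178, 119, 125 and 306 TPM in OT1 libraries against 90.7 to 117 in the tumour (log2 difference 0.52 ± 0.27, adjusted p = 0.0953), and it passed without OT1 library 1 (0.70, adjusted p = 0.0216).

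Myeloid markers moved with these values. The 15 markers summed to 1213, 5968, 2837, 3802 and 16334 TPM in OT1 libraries 1 to 5 and to 41.3 to 151 in the tumour. All 15 passed 1 TPM in at least 1 OT1 library, and Csf1r and Lyz2, which define macrophages and related cells, averaged 195 and 1952 TPM there against 1.37 and 23.6 in the tumour. Abca1, Npc1, Npc2 and Soat1 were all highest in OT1 library 5, which had the highest sum, and Abca1, Npc1 and Npc2 were lowest in library 1, which had the lowest. OT1 library 5 also had the lowest T cell marker sum, 3238 TPM against 4329 to 5062 in the others. It was the lowest OT1 library for Acat2 (5.09 TPM), Idi1 (5.18), Fdps (13.5), Sqle (5.90), Cyp51 (6.28) and Hsd17b7 (1.64), and for Hmgcs1, Mvk, Pmvk, Ggps1, Fdft1, Sc5d, Srebf2, Scap and Stard4. The same library was the highest OT1 library for Tm7sf2 (8.55 TPM), Insig1 (16.3) and, narrowly, Msmo1 (12.5). For Mvd, Lss, Nsdhl, Ebp, Dhcr7 and Insig2 it was neither. Erythroid markers summed to 61.6 to 2653 TPM in OT1 libraries against 9.31 to 858 in the tumour. Fibroblast markers summed to 27.0 to 84.1 TPM in OT1 libraries against 328 to 835 in the tumour, where Col1a1 ran from 3.09 to 114. Mean Col1a1, Col1a2, Dcn and Lum were 49.4, 35.9, 36.8 and 25.9 TPM in the tumour and 0.189, 1.71, 0.771 and 0.853 in control culture. Col3a1 and Pdgfra ran the other way, at 424 and 26.7 TPM against 805 and 46.1. The part of other cells in these results was not tested.

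In a fit without OT1 libraries 2, 4 and 5, chosen after their marker sums had been seen, 4 genes were higher and 17 lower of 27 tested, with a median of -0.72. Of all 12054 genes in that fit 2491 were higher and 5670 lower, with a median of -0.33. Ebp was 1.07 higher, against 1.09 with all libraries, and Dhcr7 0.54, against 0.38. The difference of Npc1 was 0.33 (adjusted p = 0.0385) and that of Npc2 0.002, while that of Soat1 was -1.10, against -0.77 with all libraries. Stard4 passed as higher, at 0.65 (adjusted p = 0.00501), against 0.29 (adjusted p = 0.235) with all libraries, and it also passed without OT1 library 5 alone (0.49, adjusted p = 0.00584). Pmvk, Fdft1 and Lss no longer passed (adjusted p = 0.0521, 0.20 and 0.146). Abca1 fell below the filter in this fit, and its remaining OT1 values were the 2.93 and 8.26 TPM of libraries 1 and 3.

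**Figure D5:**
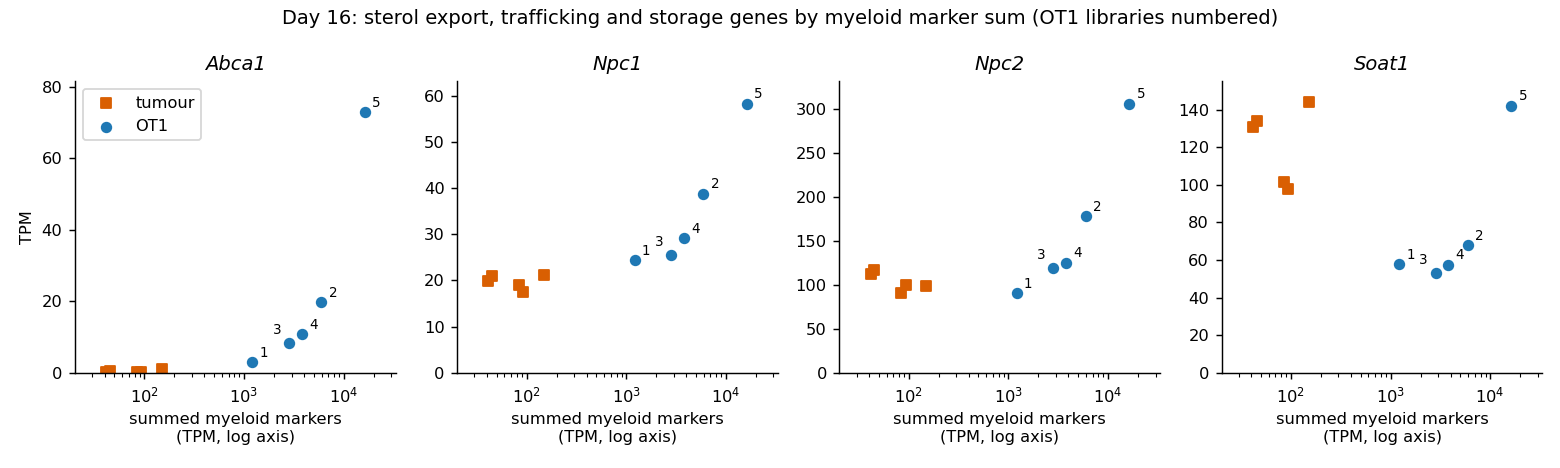
TPM of Abca1, Npc1, Npc2 and Soat1 in each day 16 library against the summed TPM of 15 myeloid markers (log axis), tumour libraries as squares and OT1 libraries as numbered circles. OT1 library 5, with a marker sum of 16334 TPM, has the highest value of the OT1 libraries in all 4 panels, and OT1 library 1, with 1213, the lowest in the first 3.

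Of the 47 further sterol genes tested on day 16, 17 were higher and 19 lower in OT1 cells, against 30.1% and 44.4% of all genes, with a median log2 difference of 0.02. Without OT1 libraries 2, 4 and 5 the count of higher genes was 10, in a fit where 2491 of all 12054 genes were higher. The smallest p-values were those of Gramd1a and Gramd1b, carriers of plasma membrane cholesterol, at 193 ± 18.9 and 48.6 ± 5.61 TPM in OT1 cells against 45.1 ± 2.24 and 10.6 ± 0.531 in the tumour. Their log2 differences were 2.07 ± 0.08 and 2.09 ± 0.10. Mbtps2, the second protease of SREBP activation, was lower at 21.0 ± 2.30 TPM against 60.9 ± 2.99.

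Levels per transcript length can be ordered within the TPM tables. In control LLC cells Scap (129 ± 22.3 TPM) was the highest of the 28 genes, followed by Fdps (104 ± 1.73) and Srebf2 (101 ± 5.49), which differed by less than the SD of Srebf2, and then by Soat1, Insig1 and Insig2. Tm7sf2 (5.90 ± 0.262), Hsd17b7 (4.99 ± 0.719) and Abca1 were the lowest. With BAY-876, with TNF and in the combination Fdps was first, in the combination by less than the SD over Scap (140 ± 8.66 and 139 ± 15.6). In sorted tumour cells Fdps (122.5 ± 34.8), Soat1 (122 ± 20.8) and Scap (113 ± 21.2) led, within their SDs of each other. In OT1 cells Npc2 (163 ± 85.6) led with a large spread, and Srebf2, Soat1 and Scap followed at 78.1, 75.7 and 74.5 TPM, closer together than their SDs.

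In the GENCODE M21 annotation of GRCm38, 14 of the 28 genes overlap another gene, 3 on the same strand and 11 on the opposite one. The largest responses include such cases: Fdps (chr3:89093588-89101959, minus strand) overlaps predicted genes on its strand, Idi1 (chr13:8885501-8892451, plus strand) an antisense transcript, and Cyp51 (chr5:4081145-4104746, minus strand) the gene Akap9. These overlaps are of whole gene spans, introns included, and whether reads were shared was not examined. The sources used here do not say whether counting used strand. Without it, reads from a stretch shared with an antisense partner cannot be told apart. For partners on the same strand, as with Fdps, strand does not separate them. Msmo1 (chr8:64718139-64733792, minus strand), Sqle (chr15:59315077-59331192, plus strand) and Insig1 (chr5:28071363-28078662, plus strand) overlap no other annotated gene.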

How the data were processed

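RNA was extracted with Trizol and sequenced in 28 libraries. Tools named per the submitters' processing notes, without their roles, are DESeq2 1.34.0, STAR 2.6.1d and Salmon 0.14.1 or 0.13.1, with genome mm10. The authors deposited DESeq2-normalized values at 36 h, used here as a normalized count signal, since at best 62.9 to 71.4% of values under 20 came out whole (tolerance 0.02) and no count test could be run. The authors deposited TPM for 32 h and day 16, and 24 further columns without a label were not used. The authors' deposited 32 h comparisons hold log2 fold changes, standard errors and adjusted p-values.

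Values were taken as log2(value + 1), which understates changes of low genes. Genes needed 10 normalized counts or 1 TPM in 3 libraries (5 for the sorted cells). Each table was fitted with limma 3.58.1 (R 4.3.3) with a variance trend, the 12 libraries at 32 h in 1 fit, with Benjamini-Hochberg adjustment over all genes and a threshold of 0.05. The 8 comparisons were those in the text. Depth is unknown for TPM, and the number of libraries limits precision. The script was tested on simulated data. The genes and lists were chosen with earlier results of these data known. Beyond the 28 genes, at most the 3 of smallest p among the further sterol genes were named per comparison. Some genes of the pathway are not reported here. Alternatives were another pseudocount (10 normalized counts or 0.1 TPM), no filter, a mean of 100 normalized counts or 5 TPM, quantile normalization, each library left out, a replicate block, fits of the compared libraries alone and no variance trend.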

Additional observations from a re-analysis of the deposited data

Results flagged for a closer look

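Among 56 groups of 5 day 16 libraries, 1 per gene and cell type, 5 held a library whose gap to its nearest neighbour, as a share of the group's range, was above Dixon's critical value of 0.71. Chance alone flags about 1 in 20 groups. Pmvk at 21.6 TPM and Tm7sf2 at 8.04 TPM were low in tumour library 1, where the other tumour libraries had 29.7 to 30.5 and 12.2 to 13.5 TPM. Dhcr7 at 26.9 TPM was high in OT1 library 1, against 17.9 to 19.5 in the others. Soat1 at 142 TPM and Abca1 at 72.9 TPM were high in OT1 library 5, the library with the highest myeloid marker sum.

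The response to BAY-876 differed with and without TNF by a test of the difference itself for Fdps, with an interaction of -0.60 on the log2 scale (adjusted p = 0.0076), and for Msmo1, with -0.50 (adjusted p = 0.0187).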

How the results depend on the processing

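No difference of a gene that passed reversed its sign under any alternative. Calls that held under every alternative numbered 1 of 5 for BAY-876 at 36 h, 13 of 16 for BAY-876 at 32 h, 9 of 13 for TNF, 15 of 17 for the combination against control, 10 of 17 against BAY-876, 8 of 12 against TNF, 1 of 2 for the interaction and 21 of 24 on day 16. Without a trend in the prior variance 0 genes rose at 36 h. With a filter at a mean of 5 TPM, 1 gene (Ebp) was lower with BAY-876 at 32 h and 1 (Soat1) had a positive interaction, while Idi1 passed as negative (adjusted p = 0.0471). In fits of the compared libraries alone 9 genes were lower in the combination than with BAY-876. The last 2 settings used fewer genes or fewer libraries. The cause of these changes was not tested.

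Leaving out 1 library at a time gave 1 to 4 genes higher and 1 to 2 lower at 36 h, 14 to 17 and 0 to 2 with BAY-876 at 32 h, 5 to 6 and 4 to 7 with TNF, 10 to 13 and 5 to 5 in the combination against control, 3 to 3 and 8 to 13 against BAY-876, 6 to 11 and 2 to 4 against TNF, 0 to 0 and 1 to 3 for the interaction, and 4 to 5 and 20 to 20 on day 16.

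The same replicate numbers appear in each group without a stated meaning, and the correlations of the deviations of same-numbered libraries ran from -0.074 to -0.019 at 36 h, from -0.192 to 0.12 at 32 h and from 0.045 to 0.111 on day 16, where all 5 were positive. Not every pair was above 0.1, a cut that was a choice, so the numbers were not taken to pair the libraries. Pairs of other numbers on day 16 ran from -0.174 to 0.113. Erythroid marker sums were lowest in library 2 and highest in library 4 of both sorted cell types. Whether same-numbered day 16 libraries came from the same tumour was not tested, and the main fit did not pair them. With the number as a replicate block, 211 of 217 gene values kept their side of the threshold. At 36 h Hsd17b7 then passed (adjusted p = 0.0428) and Npc1 did not (adjusted p = 0.0526). Depth could not be assessed from TPM.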
